A study of Mus musculus with 36 samples.

Results

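The gastrocnemius (GAS), the large calf muscle that extends the foot, of male offspring was profiled by RNA sequencing in 6 libraries, which are 6 of the 36 samples of the series. All 6 count columns of the GAS table were taken as 1 group. The labels give 3 of these samples to glucose-tolerant offspring (HFDt) and 3 to glucose-intolerant offspring (HFDi), but the column names show neither, so the classes were not compared. The columns carry the numbers 4 to 9, which are used here only as names. The offspring were C57BL/6 wildtype males (C57BL/6N in the study's methods) from unexposed dams and from fathers that had eaten a high fat diet (HFD, 60% of kcal from fat) for 2 weeks from 6 weeks of age. By the study's methods the offspring ate chow for life, although their treatment field reads High Fat Diet, and their age at dissection is not given in the sources used here. No GAS library from a control father stands in the table, so no effect of the paternal diet was measured. Nothing in the labels says whether each library came from a separate animal, so p-values measure the spread between these libraries, part of which may be technical.

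Limb muscle of mice is built from multinucleated fibres whose speed and metabolism follow their isoforms of myosin heavy chain. Fibres of type 1 contract slowly and carry Myh7, those of type 2A carry Myh2, those of type 2X carry Myh1 and the fastest, of type 2B, carry Myh4. Slow and 2A fibres are rich in mitochondria and burn fatty acids, 2B fibres draw on glycogen and glycolysis, and in the mouse the deep part of the gastrocnemius holds more of the slow and 2A fibres than its pale surface. A whole-muscle library also holds RNA of vessels, nerve, fat, connective tissue and blood, and in such bulk RNA fewer cells of a type and less RNA per cell cannot be told apart.

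The 6 libraries differed in depth and 1 stood apart. Library 4 held 369772 counts and library 7 held 935991, whereas the other 4 held 1775036 to 2749920. A count of 0 allows up to 3 counts, which is 8.11 CPM (counts per 1000000 counts) in library 4 and 1.09 CPM in library 5, for counting error only. Levels below are CPM scaled within the 6 libraries by the trimmed mean of M values (TMM) unless another scale is named. Over 5390 genes with a mean of at least 10 CPM, libraries 5, 6, 8 and 9 correlated with each other at r = 0.956 to 0.962 on the log2 scale, library 7 with these 4 at 0.903 to 0.920, and library 4 with the other 5 at 0.841 to 0.898, values across genes that are not independent. The first principal component held 48.7% of the variance, with library 4 at -48.39 and the others from 1.33 to 15.19. The second held 27.02% and set library 7 at -35.96 apart from the others at 1.23 to 10.50. No pair of libraries agreed within sampling noise.

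The markers of skeletal muscle were abundant in every library. Myh4 had 14128, 33479.6, 36297, 22885, 33544 and 36266 CPM in libraries 4 to 9. Acta1, the actin of the skeletal thin filament, had 8343, 12005, 15793, 9999, 15969.7 and 13863 CPM. Ckm, the muscle creatine kinase that buffers ATP, had 1738, 3189, 4732, 1678, 4805 and 3561 CPM. For all 3 markers the lowest levels were those of libraries 4 and 7. Scaled together with the liver and eWAT (epididymal white fat) libraries of the same offspring groups, Acta1 stood at 9170 to 19950 CPM in GAS, 3.38 to 16.1 in liver and 21.0 to 261 in eWAT, without overlap. The log2 difference in Acta1 was 11.09 ± 0.70 (SE, adjusted p = 1.96e-12) from liver and 7.29 ± 0.59 (SE, adjusted p = 2.58e-10) from eWAT by edgeR's quasi-likelihood test with Benjamini-Hochberg adjustment over all genes. Alb and Apoa2, which mark hepatocytes, stayed at or under 1.98 and 0.592 CPM in GAS, and Krt5 and Krt14 of the epidermis were at 0 in all 6 libraries.

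A few genes took most of the counts. The 10 most abundant genes held 48.2% ± 3.35 (SD, n = 6) of all counts, and the 100 most abundant held 68.3% ± 1.67 (SD, n = 6). Of the 10, 6 are encoded by mitochondrial DNA (mtDNA): mt-Nd4, mt-Nd1 and mt-Nd2, subunits of complex I, mt-Cytb of complex III, and the ribosomal RNA genes mt-Rnr1 and mt-Rnr2. mt-Nd4 alone averaged 115819 ± 26838 CPM (SD, n = 6, scaled by library totals). The other 4 were Ttn, which encodes the giant spring protein titin, Myh4, Neb for nebulin, the ruler of the thin filament, and Gm42418, a transcript that lies over a ribosomal RNA repeat.

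Among nuclear genes alone, the 10 most abundant held 29.9% ± 3.98 (SD, n = 6) of the nuclear counts, with 25.1%, 31.9%, 33.2%, 24.8%, 31.0% and 33.7% in libraries 4 to 9. Libraries 4 and 7 had the lowest shares. Besides Ttn, Myh4, Gm42418 and Neb these were Tnnt3 and Tnnc2 (fast troponins T and C), Tpm1 (tropomyosin), Acta1, Malat1 (a nuclear non-coding RNA) and Myl1 (fast myosin light chain). Per kilobase of exon the order was another one: Tnnc2 came to 16767 mean CPM per kb, Tnnt3 to 9561, Acta1 to 8241, Myh4 to 4879, and Neb and Ttn, whose transcripts are very long, to 577 and 369. The library kit primes at the 3′ end, where reads per transcript need not grow with length, so neither scale is a count of molecules.

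The mtDNA-encoded genes held 37.3% ± 5.38 (SD, n = 6) of the counts in GAS. The shares were 45.5%, 37.2%, 29.8%, 40.7%, 34.8% and 35.7% in libraries 4 to 9, so that library 4 was the highest and library 6 the lowest, and the exact 95% binomial intervals, which cover counting error only, reached at most 0.161 percentage points to either side. In liver the share was 24.2% ± 2.23 (SD, n = 6) and in eWAT 16.7% ± 1.09 (SD, n = 6), and no library of either overlapped GAS. The difference was 13.1 percentage points from liver and 20.6 from eWAT, each with p = 0.00216 in a two-sided exact permutation test of 6 against 6 libraries with 924 possible splits (adjusted over both comparisons, also 0.00216), the smallest p that this design allows. The protein genes alone differed from liver by 13.6 points. Of the 2 ribosomal RNA genes, 0 were called different from liver by edgeR (median log2 difference -0.12). Both were called higher than in eWAT (1.43), but 0 with library totals.

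**Figure D1:**
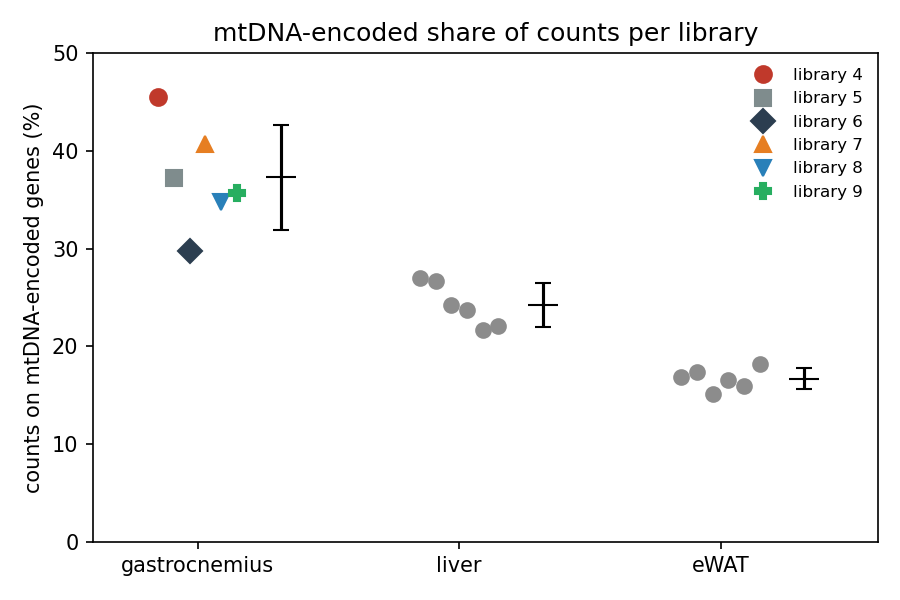
Share of counts on mtDNA-encoded genes (%) in each library of GAS, liver and eWAT. Each point is 1 library and the bars at the right of each tissue give the mean and SD of its 6 libraries; the GAS libraries lie between 29.8% and 45.5%, above all libraries of liver and eWAT.

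Within the mtDNA-encoded counts the makeup varied between libraries. mt-Nd4 took 33.8%, 28.3%, 24.3%, 31.3%, 34.7% and 32.3% of them in libraries 4 to 9. mt-Rnr2, the large ribosomal RNA, took 22.9%, 25.2%, 27.2%, 19.7%, 17.3% and 21.2%. mt-Nd1 took 14.6% to 19.9%, with libraries 7 and 8 the highest. Over all counts, the 2 ribosomal RNA genes held 11.5% ± 2.24 (SD, n = 6) and the protein genes 25.8% ± 4.43 (SD, n = 6). Between libraries, mt-Cytb was the most even protein gene with an SD of 0.12 on the log2 scale, and mt-Nd6, the only one on the other strand and at only 4.29 to 21.9 CPM, the least even with 0.81. mt-Co1, a core subunit of cytochrome oxidase, stood at 1535 to 2512 CPM. mt-Co2, mt-Co3, mt-Atp6, mt-Atp8 and mt-Nd4l are listed at 0 in all 6 libraries, and mt-Nd3 at 1.53 to 4.95 CPM. The share of mtDNA therefore rests on part of the mtDNA genes.

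Some genes that every muscle fibre uses were likewise listed at or near 0. Gapdh, a step of glycolysis, stood at 0.989 to 4.14 CPM and Pgk1 at 0 to 0.905, and Pygm, the muscle glycogen phosphorylase, at 0 to 5.34. Cpt1b, which admits fatty acids into muscle mitochondria, and the imprinted genes Meg3 and Rian are listed at 0 throughout. Of 88 cytosolic ribosomal protein genes, only 30 reached a mean of 10 CPM. How the authors' counting treated reads with several matches is not given in the sources used here, and its part in these values was not tested.

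By its myosin heavy chains the muscle was one of type 2B fibres in every library, with a clear exception in degree. Myh4 held 92.6% ± 8.70 (SD, n = 6) of the counts of all myosin heavy chain genes. Per library it held 76.0%, 95.5%, 97.9%, 89.9%, 98.0% and 98.1% in libraries 4 to 9. Libraries 6, 8 and 9 lay closest to each other, library 7 was lower and library 4 the lowest. Myh2 of 2A fibres held 17.8%, 2.32%, 1.05%, 5.52%, 0.997% and 0.677%, and Myh1 of 2X fibres 2.94%, 1.85%, 0.707%, 4.22%, 0.759% and 0.787%. Myh7 of slow fibres held 3.01%, 0.113%, 0.0824%, 0.260%, 0.0278% and 0.0960%, which rested on 205, 104, 57, 67, 21 and 60 counts. Library 4 had the highest shares of Myh2 and Myh7, and library 7 that of Myh1 and the second highest of Myh2.

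The remaining members of the family were low. Myh8, the perinatal isoform, had 5.47, 38.2, 39.1, 22.8, 46.6 and 68.0 CPM in libraries 4 to 9. Myh3, the embryonic one, had 4.95 to 30.2 CPM, and the lowest values of both were in libraries 4 and 7. In library 4 each rested on 2 counts, under the 8.11 CPM that a count of 0 allows there. Myh3 in library 7 rested on 5 counts, so these values are too few to rank. Myh13 of extraocular muscle had 2.97 to 19.1 CPM, and Myh6, the heart isoform, 0 to 14.2 CPM. Myh7b reached 2.68 CPM at most and Myh15 was at 0 in all 6 libraries. The coding sequences of these paralogs are alike, so that reads in shared stretches are uncertain.

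The genes that differed most among the libraries were those of the slow contractile apparatus. Of 15 genes of slow sarcomeres and calcium handling, 12 reached a mean of 10 CPM, and 11 of the 12 had an SD of at least 1 on the log2 scale, against 2.15% of all genes at that level. Their median SD was 1.80, beside 0.37 for all genes and 0.18 from counting error alone. All 12 were highest in library 4, and 8 of the 12 were lowest in library 8. Without library 4 the median SD was 0.88, and 3 of the 12 still reached 1.

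Myh7 had 560.2, 39.7, 30.6, 66.3, 9.50 and 35.5 CPM in libraries 4 to 9, 15.8 times as much in library 4 as the median of the others. Myl2, the slow regulatory light chain of myosin, had 689, 54.2, 45.0, 60.4, 11.3 and 37.9 CPM. Myl3, the slow essential light chain, had 2754, 218, 171, 265, 66.1 and 127 CPM. Library 4 stood alone in all 3 genes, and library 8 was the lowest. Tnnt1, the slow troponin T that ties troponin to tropomyosin, had 1066, 84.3, 52.5, 124, 17.2 and 107 CPM. Tnnc1, the calcium sensor of slow troponin, had 385, 35.1, 15.5, 44.5, 7.24 and 39.6 CPM. Tnni1, the slow inhibitory troponin, had 180.4, 14.5, 14.5, 24.7, 9.50 and 18.9 CPM. The 3 slow troponins thus ordered the libraries alike at both ends, with library 4 on top, library 7 next and library 8 last. Atp2a2, the slow calcium pump of the sarcoplasmic reticulum, had 1003, 92.7, 69.1, 185, 27.2 and 69.2 CPM. Tpm3, the slow tropomyosin, had 844, 70.6, 71.8, 124, 15.4 and 76.3 CPM. For the 12 genes, the level in library 4 was 4.63 times (Csrp3, a stretch-related protein of the Z-disc) to 16.1 times (Myl3) the median of the other 5 libraries. The low members Sln, Pln and Myl6b did not reach 10 CPM, and Sln, which brakes the calcium pump, had 24.6 CPM in library 4 and 0 to 3.22 in the others.

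Shares within pairs of slow and fast isoforms do not depend on how libraries are scaled. Tnnt1 held 8.30%, 0.460%, 0.305%, 1.39%, 0.0999% and 0.580% of the counts of Tnnt1 and Tnnt3 together in libraries 4 to 9. Atp2a2 held 21.3%, 1.44%, 0.989%, 5.81%, 0.511% and 1.21% of the calcium pump counts. Myl2 held 19.5%, 1.25%, 0.945%, 2.41%, 0.235% and 0.915% of the counts of Myl2 and Mylpf, the slow and fast regulatory light chains. In these 3 pairs library 4 had the largest slow share, library 7 the second largest and library 8 the smallest. The same order at both ends held for Tnni1 against Tnni2 and for Tnnc1 against Tnnc2, where library 4 reached 3.17% and 3.99% and library 8 was at 0.100% and 0.0405%. Casq2, the slow calcium store of the reticulum, broke it at the low end with 12.9%, 1.48%, 0.662%, 4.34%, 1.21% and 0.892% of the counts of Casq2 and Casq1, smallest in library 6.

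The start regions of a slow and a fast gene of 2 protein families are shown, since the members of these pairs moved apart among the libraries. Each sequence runs from 250 bases before to 50 after a RefSeq start site in GRCm38.p6, 5′ to 3′ on the gene's strand. Capitals mark E-boxes (CANNTG, bound by the MyoD family), MCAT elements (CATTCC or, on the other strand, GGAATG, bound by TEAD factors) and TATA motifs (TATAAA or TTTATA). For Myh7 the first of 2 listed starts was taken.
Myh7 (slow, chr14:54994577-54994876, minus strand): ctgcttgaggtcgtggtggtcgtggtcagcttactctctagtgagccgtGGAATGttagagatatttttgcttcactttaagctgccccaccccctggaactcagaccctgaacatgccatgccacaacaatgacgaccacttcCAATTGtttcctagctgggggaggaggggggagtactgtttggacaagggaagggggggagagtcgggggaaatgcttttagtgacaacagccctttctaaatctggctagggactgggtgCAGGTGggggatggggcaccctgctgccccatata
Myh4 (2B, chr11:67237562-67237861, plus strand): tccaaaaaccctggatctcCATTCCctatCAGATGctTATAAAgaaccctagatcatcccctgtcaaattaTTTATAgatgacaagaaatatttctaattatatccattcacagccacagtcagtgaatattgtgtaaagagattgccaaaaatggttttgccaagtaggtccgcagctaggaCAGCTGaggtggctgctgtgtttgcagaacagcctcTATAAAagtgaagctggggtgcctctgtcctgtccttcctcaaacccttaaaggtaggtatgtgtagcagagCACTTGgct
Tnnc1 (slow, chr14:31208062-31208361, plus strand): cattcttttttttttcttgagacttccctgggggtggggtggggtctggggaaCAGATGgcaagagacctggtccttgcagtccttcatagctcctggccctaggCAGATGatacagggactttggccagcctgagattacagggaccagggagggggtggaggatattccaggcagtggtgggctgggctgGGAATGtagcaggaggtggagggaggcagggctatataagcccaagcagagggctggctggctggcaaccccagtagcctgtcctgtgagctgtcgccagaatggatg
Tnnc2 (fast, chr2:164779685-164779984, minus strand): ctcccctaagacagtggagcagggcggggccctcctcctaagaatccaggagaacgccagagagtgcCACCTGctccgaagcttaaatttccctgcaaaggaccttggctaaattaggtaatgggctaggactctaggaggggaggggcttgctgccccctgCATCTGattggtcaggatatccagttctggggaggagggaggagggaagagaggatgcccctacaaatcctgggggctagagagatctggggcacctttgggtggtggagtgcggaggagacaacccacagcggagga
E-boxes stood in all 4 windows, with 2 in Myh7, 3 in Myh4, 2 in Tnnc1 and 2 in Tnnc2, and such a motif stands in 72.3% of the 32851 start regions of this length. An MCAT element stood once each in Myh7, Myh4 and Tnnc1, against 14.7% of all start regions. The letters TATAAA or TTTATA stood in Myh4 alone, the nearest with its first base at position -31 from the start site. Of all start regions, 13.6% hold one. Other TATA-like runs, such as tatataa in the Tnnc1 window, were not searched for. No motif overlapped another. A match of letters is a description and not a measured site.

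**Figure D2:**
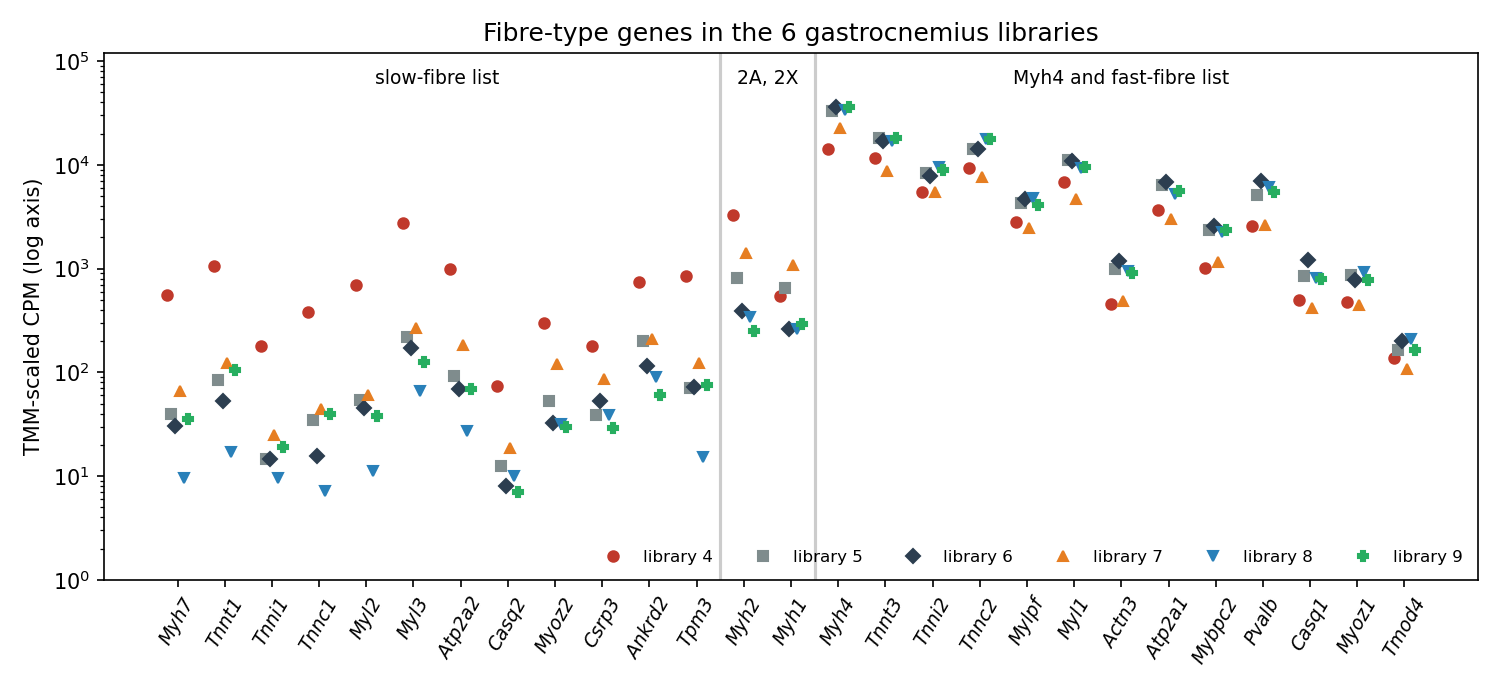
TMM-scaled CPM (log axis) of 12 slow-fibre genes, Myh2 and Myh1, and Myh4 with 12 fast-fibre genes, 1 symbol per GAS library. Library 4 lies above the other libraries in all 12 slow genes, up to 2754 CPM for Myl3, and libraries 4 and 7 lie lowest in the fast genes.

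The fast list varied less and in 2 libraries. All 12 genes of fast sarcomeres and calcium handling passed 10 CPM, none had an SD of at least 1, and their median SD was 0.48. Every 1 of the 12 was lower in library 4 and in library 7 than the median of the respective other libraries, by a median of -0.63 in library 4 and -0.94 in library 7 on the log2 scale, where the median of all genes was -0.19 and -0.05. Tnnt3 had 11767, 18245, 17165, 8796, 17197 and 18253 CPM in libraries 4 to 9. Pvalb, the calcium buffer of 2B fibres, had 2582, 5131, 7007, 2634, 6072 and 5486 CPM, the largest spread of the list (SD 0.62). Tnni2, the fast inhibitory troponin, had 5509, 8442, 7766, 5543, 9487 and 9026 CPM and the smallest (SD 0.35). Actn3, the α-actinin of fast fibres, had 454, 996, 1186, 489, 949 and 909 CPM. In libraries 5, 6, 8 and 9 these genes lay close together, and library 7, which was second to library 4 in all 12 slow genes, was the lowest in 8 of the 12 fast genes. These directions in libraries 4 and 7 held under TMM, DESeq2 size factors, library totals and TMM without mtDNA genes.

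Genes of oxidative metabolism went with the slow genes at the high end, though less steeply, but not at the low end, where the slow genes were lowest in library 8. Of 21 genes of fatty acid uptake and oxidation, 20 reached 10 CPM and none had an SD of at least 1, with a median SD of 0.55. All 20 were higher in library 4 than the median of the others (median log2 difference 1.13), and 18 of 20 were higher in library 7 (0.77) and in library 5 (0.48), whereas 19 of 20 were lower in library 6 (-0.51), 18 in library 8 (-0.47) and 19 in library 9 (-0.58). Of all 5390 genes, 2051, 2511 and 2841 were higher in libraries 4, 7 and 5, and 2426, 2405 and 2572 lower in libraries 6, 8 and 9. Of the 20 genes, 10 were lowest in library 9, 7 in library 6 and 2 in library 8. Lpl, which frees fatty acids from lipoproteins, had 2039, 969.8, 526, 2642, 674 and 564 CPM and was the most spread (SD 0.99). Fabp3, the fatty acid carrier of muscle, had 874, 292, 181, 303, 154 and 135 CPM. Mlycd, which removes malonyl-CoA, was the most even at 68.0 to 101 CPM. Mb, the oxygen store myoglobin, had 3489.5, 1187, 513, 1249, 608 and 471 CPM. Idh2, a mitochondrial isocitrate dehydrogenase, had 1323, 359, 149, 649, 182 and 139.6 CPM. Both were highest in library 4, second in library 7 and lowest in library 9.

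Nuclear subunits of the respiratory chain and ATP synthase had a smaller median SD than the fatty acid oxidation genes. Of 91 genes, 75 reached 10 CPM, none had an SD of at least 1 and the median SD was 0.34. Counting error alone gives a median of 0.11 for this list. For all genes the median SD was 0.37, beside 0.25 from counting error. Against the median of the others, the median log2 difference of the list was 0.27 in library 4, with 60 of 75 higher, and -0.24 in library 6, with 66 of 75 lower. In library 7 it was 0.10, with 45 of 75 higher, and in library 8 it was 0.09, with 50 of 75 higher. Of all 5390 genes, 2051, 2511 and 2985 were higher in libraries 4, 7 and 8, and 2426 were lower in library 6. Atp5j, a stalk subunit of ATP synthase, spread the most with 73.8, 85.8, 112, 264, 178 and 94.7 CPM and was highest in library 7. Uqcc1, an assembly factor of complex III, spread the least with 61.3 to 72.9 CPM.

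The genes of glycogen use and glycolysis leaned the other way. Of 16 genes 12 reached 10 CPM, with a median SD of 0.40 and none at 1. In library 4, 11 of the 12 were lower than the median of the others (median -0.64), and in library 7 also 11 of 12 (median -0.31), though under DESeq2 size factors these were 10 in each and under library totals 8 in library 7. Of all 5390 genes, 3339 were lower in library 4 (median -0.19) and 2879 in library 7 (median -0.05). Phka1, a subunit of the kinase that switches on glycogen breakdown, had 189, 445, 608, 494, 712 and 551 CPM and the largest spread (SD 0.67, and 0.26 without library 4). Eno3, the muscle enolase, had 932, 1646, 1924, 1863, 2407 and 1966 CPM. Tpi1 was the most even with 156 to 207 CPM. Of the ATP-buffering genes, Ckm had an SD of 0.68, whereas Ckmt2, the mitochondrial creatine kinase, had 514, 349, 217, 712, 382 and 241 CPM and was highest in library 7 and second in library 4. Ampd1, which deaminates AMP in fast fibres, had 213, 390.3, 529.6, 244, 408 and 359.7 CPM.

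**Figure D3:**
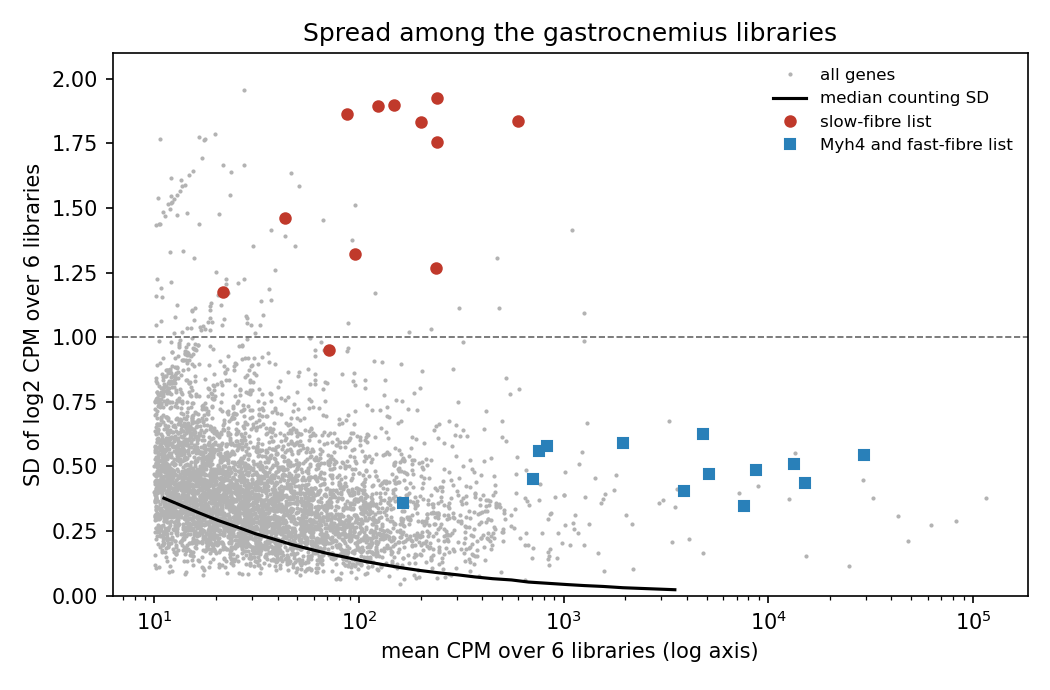
SD of log2 CPM over the 6 GAS libraries against mean CPM (log axis) for 5390 genes, with the median SD from counting error as a line and the threshold of 1 dashed. Slow-fibre genes lie between 0.95 and 1.93, and Myh4 with the fast-fibre genes between 0.35 and 0.62.

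Over all 5390 genes at 10 CPM or more, the median SD was 0.37, beside a median of 0.25 that counting alone would give, and 1743 genes had more than 2 times their counting SD. An SD of at least 1 was found in 116 genes (2.15%). Library 4 was the highest in 46 of these and the lowest in 53, and 25 had a count of 0 in library 4. With the other 5 libraries scaled anew without library 4, 39 genes reached an SD of 1, and without library 7 the number was 113. At a mean of 100 CPM or more, a limit set after the data had been seen, 15 of 812 genes (1.85%) reached it, and 14 of the 15 were highest in library 4. By the same measure the median SD was 0.32 in liver and 0.34 in eWAT, whose libraries were mostly deeper, and 0.965% and 3.55% of their genes reached an SD of 1.

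Of the 20 genes with the largest SD, 9 rested on a count of 0 in the shallow library 4. These were Tspan8, Sertad2, Xrcc5, Cish, Gm11966, Tmcc2, Scaf4, Ocrl and 2510039O18Rik. Tspan8, a membrane tetraspanin, had 27.1, 32.7, 40.6, 34.9 and 27.2 CPM in libraries 5 to 9 and an SD of 0.24 without library 4. Scaf4 had 20.2, 19.3, 17.8, 21.7 and 23.1 CPM and an SD of 0.14 without it. Cish, an inhibitor of cytokine signals, was uneven also among libraries 5 to 9 with 1.14, 5.90, 28.7, 19.9 and 5.92 CPM. Another 7 of the 20 were slow genes (Tnnt1, Myl2, Myh7, Tnnc1, Myl3, Tpm3 and Atp2a2), all but Atp2a2 ranking directly behind Tspan8. Adipoq, Angptl7 and Ldhb also belonged to the 20. Ldhb, the heart form of lactate dehydrogenase, had 62.9, 16.02, 3.22, 47.5, 4.98 and 5.33 CPM, high in libraries 4 and 7.

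The 15 genes that reached an SD of 1 at 100 CPM or more were 7 slow genes, Ankrd2 among them, Myh2, Idh2, Hspb7, Lmod2, Atp1b1, Mb, Actn2 and Slc7a2. Ankrd2, a stretch-responsive protein of slow fibres, had 751, 199.9, 114, 212, 89.6 and 60.4 CPM. Lmod2, which sets thin filament length, had 1396, 520, 282, 291, 141 and 289 CPM. Hspb7, a small heat shock protein of heart and slow muscle, had 407, 98.4, 57.9, 58.4, 41.6 and 61.5 CPM. Library 4 was the highest in all 3. Slc7a2, a transporter of arginine and lysine, was the exception with 49.2, 132, 82.0, 340.4, 217 and 219.5 CPM, lowest in library 4 and highest in library 7.

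At the other end, 10 genes of at least 100 CPM had SDs of 0.05 to 0.08, near the 0.05 to 0.12 that counting error gives for them. Gnas, the stimulatory G protein subunit, had 607, 637, 687, 652, 659 and 635 CPM. Ank, a pyrophosphate transporter, had 167, 164, 158, 155, 153 and 157 CPM. Zcrb1, of the minor spliceosome, had 219, 247, 244, 244, 246 and 244 CPM. Atp2b1, Foxn3, Nfe2l1, Pla2g16, Kif1b, Emc6 and Hint1 were as even, library 4 included.

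Among genes of insulin signalling and glucose entry, the mean log2 CPM was lowest in library 4. Of 16 such genes, 15 reached 10 CPM and none had an SD of at least 1 (median SD 0.34, beside 0.18 from counting error alone). In library 4, 10 of the 15 were lower than the median of the others, near the share of all genes (3339 of 5390). The median log2 difference of the list there was -0.62, beside -0.19 for all genes. Slc2a4, the insulin-responsive glucose transporter GLUT4, was the most even with 251, 291, 276, 219, 241 and 285 CPM. Hk2, the hexokinase of muscle, had 251, 211, 216, 292, 239 and 266 CPM. Irs1, the first substrate of the insulin receptor, had 13.7, 30.1, 48.2, 54.4, 47.5 and 40.8 CPM, lowest in library 4. Ppp1r3c, which targets a phosphatase to glycogen, spread the most (SD 0.75) with 137, 544, 460.4, 197, 241 and 247 CPM, high in libraries 5 and 6. Txnip, a glucose-induced brake on glucose uptake, had 131, 155, 202, 466, 301 and 194 CPM, highest in library 7. For lack of a class for each column these values were not compared between tolerant and intolerant offspring.

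The circadian clock had a median SD of 0.41 over 13 of 18 genes and none at 1. Nr1d2, a repressor in the loop and the most even member, had 54.7, 62.6, 61.6, 61.3, 71.5 and 61.5 CPM. Bhlhe40, another repressor and the most spread, had 10.9, 6.87, 29.5, 19.8, 33.9 and 30.8 CPM, low in libraries 4 and 5. Of the PPAR and fasting targets, 11 of 13 reached 10 CPM and 2 had an SD of at least 1. Pdk4, which closes pyruvate dehydrogenase on fasting, was the most even with 199, 238, 229, 262, 215 and 201 CPM. Acot1, an acyl-CoA thioesterase, had 24.6, 13.4, 2.14, 29.7, 4.53 and 1.78 CPM. Ppara, the fatty acid receptor itself, had 41.0, 11.8, 6.43, 14.8, 1.36 and 7.10 CPM. Both were lowest in libraries 6, 8 and 9. Of the atrophy and FOXO targets 16 of 17 reached 10 CPM with a median SD of 0.48, and only Gadd45a, a stress gene of denervated muscle, reached 1 with 5.47, 27.9, 46.6, 105, 46.2 and 56.2 CPM. Its SD of 1.36 rested on 2 counts in library 4 and was 0.67 without it. Trim63, the ligase MuRF1 that marks sarcomere proteins for breakdown, had 795, 1538, 1612, 1097, 1189 and 1446 CPM, lowest in library 4. Among immediate early genes, Egr1 was the most spread with 2.73, 16.4, 28.4, 14.8, 14.9 and 35.5 CPM, with an SD of 1.12 that was 0.56 without library 4, where it had 1 count. Fos, a partner in the factor AP-1, had 5.47, 13.4, 16.6, 4.95, 13.6 and 39.1 CPM. Nr4a1, a nuclear receptor induced by contraction, had 51.9, 33.6, 144, 36.6, 48.4 and 28.4 CPM. Library 9 thus led for Fos and Egr1 and library 6 for Nr4a1. Btg2 was the most even of them with 59.7 to 105 CPM.

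Genes of fat cells separated the libraries in another way. Of 12 adipocyte genes 2 reached 10 CPM, and both had an SD of at least 1, with or without library 4. Adipoq, the hormone adiponectin, had 54.7, 4.20, 3.75, 43.5, 8.15 and 49.1 CPM in libraries 4 to 9. Cfd, the fat cell protease adipsin, had 120.2, 22.1, 26.8, 158, 32.1 and 189.9 CPM. Plin1, which coats the lipid droplet, had 13.7, 1.53, 5.90, 10.9, 1.81 and 8.28 CPM. Libraries 4, 7 and 9 were high and 5, 6 and 8 low in Adipoq and Cfd. The 12 genes summed to 37.0 CPM at the lowest and 281 at the highest. Scd1, a desaturase of fat cells and of other cells that make lipid, had 243, 20.2, 40.2, 99.9, 19.01 and 153 CPM and was high in the same libraries. Scaled together with the other tissues, Adipoq stood at 4.58 to 60.5 CPM in GAS and 2580 to 5303 in eWAT. Of the libraries high in these genes, 4 and 7 were higher than the median of the others in all 12 slow genes, and library 9 was lower in 8. Of 20 genes of fatty acid oxidation, 20 were higher in library 4 and 18 in library 7, and 19 were lower in library 9. Over all 5390 genes, 2051 were higher in library 4 and 2511 in library 7, and 2572 were lower in library 9. The part of fat cells in the other results was not tested.

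Library 7 had its own set of high genes. Mbp, which compacts myelin, had 32.8, 18.7, 8.04, 75.2, 11.8 and 16.6 CPM in libraries 4 to 9. Pmp22, also of myelin, had 68.3, 35.9, 24.1, 126, 26.7 and 50.3 CPM. Both were highest in library 7 and lowest in library 6. Angptl7, a secreted protein of connective tissue, had 8.20, 17.5, 1.61, 84.1, 4.98 and 8.28 CPM. Fmod, a proteoglycan of tendon, had 2.73, 19.1, 11.3, 37.6, 8.60 and 10.1 CPM, and its SD went from 1.10 to 0.81 without library 4, where it had 1 count. Thbs4, a matrix protein of tendon, had 51.9, 67.5, 65.4, 104, 56.6 and 37.9 CPM. Tnmd, a tendon cell marker, had 5.47, 3.43, 2.68, 6.93, 2.72 and 0.592 CPM. Fmod and Thbs4 were highest in library 7. The Tnmd values of libraries 7 and 4 rested on 7 and 2 counts, too few to rank them. Comp stayed at or under 1.14 CPM. Of the endothelial list, 6 of 7 genes were higher in library 7 than the median of the others (median log2 difference 0.29), as were 2511 of all 5390 genes (median -0.05). Of the 7, 3 were highest in library 7, and 2 each in libraries 4 and 5. Fabp4, of capillary endothelium and fat, had 366, 208, 256, 889, 359.8 and 366 CPM, highest in library 7. Kdr, a receptor for VEGF, had 43.7, 49.6, 20.9, 77.2, 57.0 and 60.4 CPM, also highest in library 7. Pecam1, an adhesion protein of endothelium and the member that was lower, had 38.3, 33.6, 20.9, 28.7, 31.2 and 29.6 CPM.

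Blood and immune genes showed single departures. Hbb-bs, the adult β-globin, was even with 478, 328, 323, 408, 409 and 429 CPM, as was Hbb-bt with 50.5 to 66.3. The α-globins Hba-a1 and Hba-a2, which are near-identical copies and therefore uncertain, departed in library 7. Hba-a1 had 21.9, 17.5, 16.6, 2.97, 12.7 and 22.5 CPM. Hba-a2 had 32.8, 18.7, 21.98, 0.989, 18.6 and 32.5 CPM. The low values in library 7 rest on 3 and 1 counts. Ighm, the heavy chain of IgM, had 10.9, 19.8, 158, 9.89, 29.0 and 30.2 CPM and was highest in library 6, while the lymphocyte markers Cd79a, Ms4a1 and Cd3e were at 0 in all 6 libraries. Lyz2 of macrophages was even with 46.5, 30.5, 31.1, 35.6, 35.8 and 39.6 CPM, and the leukocyte markers Ptprc, Cd68 and Cd74 did not pass 9.47 CPM. Dcn, a matrix proteoglycan of fibroblasts, had 795, 946, 907, 837, 905 and 709 CPM, and none of the 11 matrix genes at 10 CPM had an SD of at least 1. H19, an imprinted non-coding RNA, had 789.7, 256, 189.7, 179, 162 and 163 CPM and was highest in library 4.

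**Figure D4:**
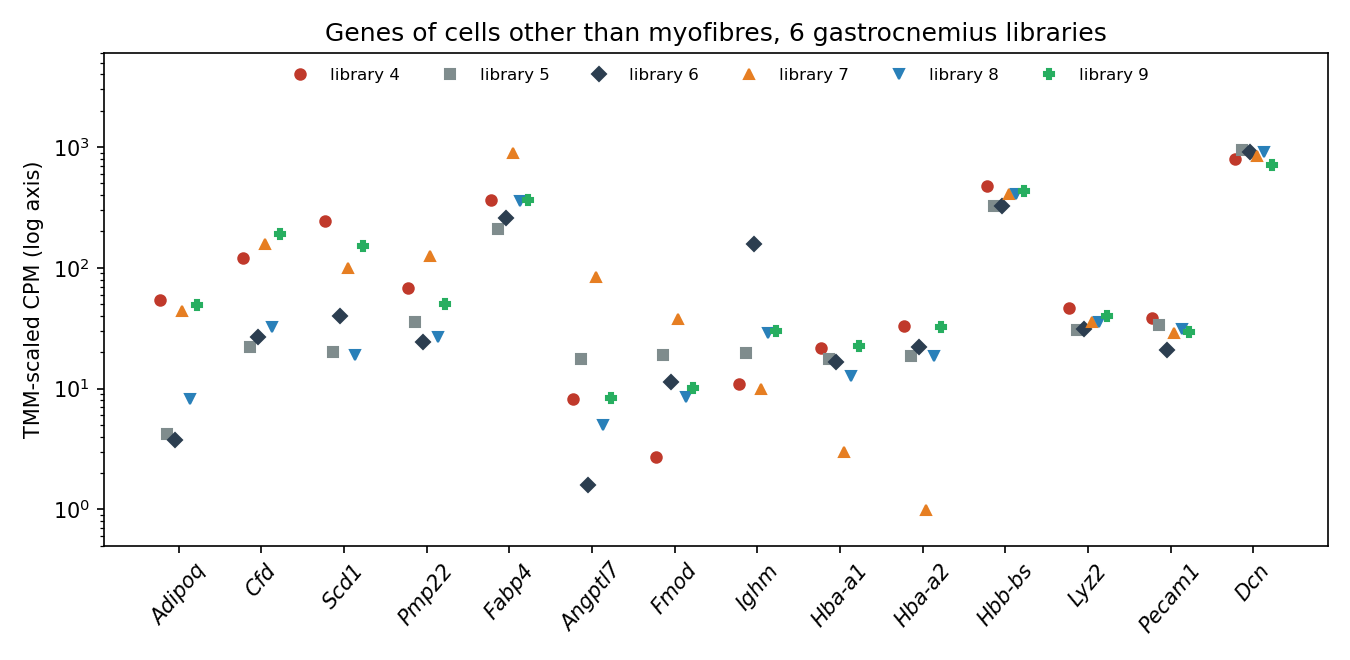
TMM-scaled CPM (log axis) of genes of fat cells, nerve, vessels, connective tissue, blood and leukocytes in the 6 GAS libraries, 1 symbol per library. Adipoq and Cfd split libraries 4, 7 and 9 from 5, 6 and 8, library 7 lies highest for Pmp22 and Fabp4, and Hbb-bs, Lyz2 and Dcn are even.

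The Y-linked genes singled out library 5. Ddx3y, an RNA helicase, had 112, 29.0, 139, 140.5, 109.5 and 99.4 CPM in libraries 4 to 9. Eif2s3y, a translation factor subunit, had 10.9, 4.20, 17.2, 14.8, 22.6 and 21.9 CPM. Kdm5d, a histone demethylase, had 5.47, 2.29, 7.504, 9.89, 6.79 and 12.4 CPM. Library 5 was low in all 3. Uty, another demethylase, had 0, 3.82, 15.5, 17.8, 15.4 and 18.9 CPM. Library 5, the deepest, was the lowest of the 6 for Ddx3y, Eif2s3y and Kdm5d, and for Uty it was the lowest after library 4, which had no count. Xist, which marks a second X chromosome, had no count in library 5 and 0.536 CPM in library 6 as its only signal. The part of sequence matches elsewhere in the genome in these values was not tested.

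**Figure D5:**
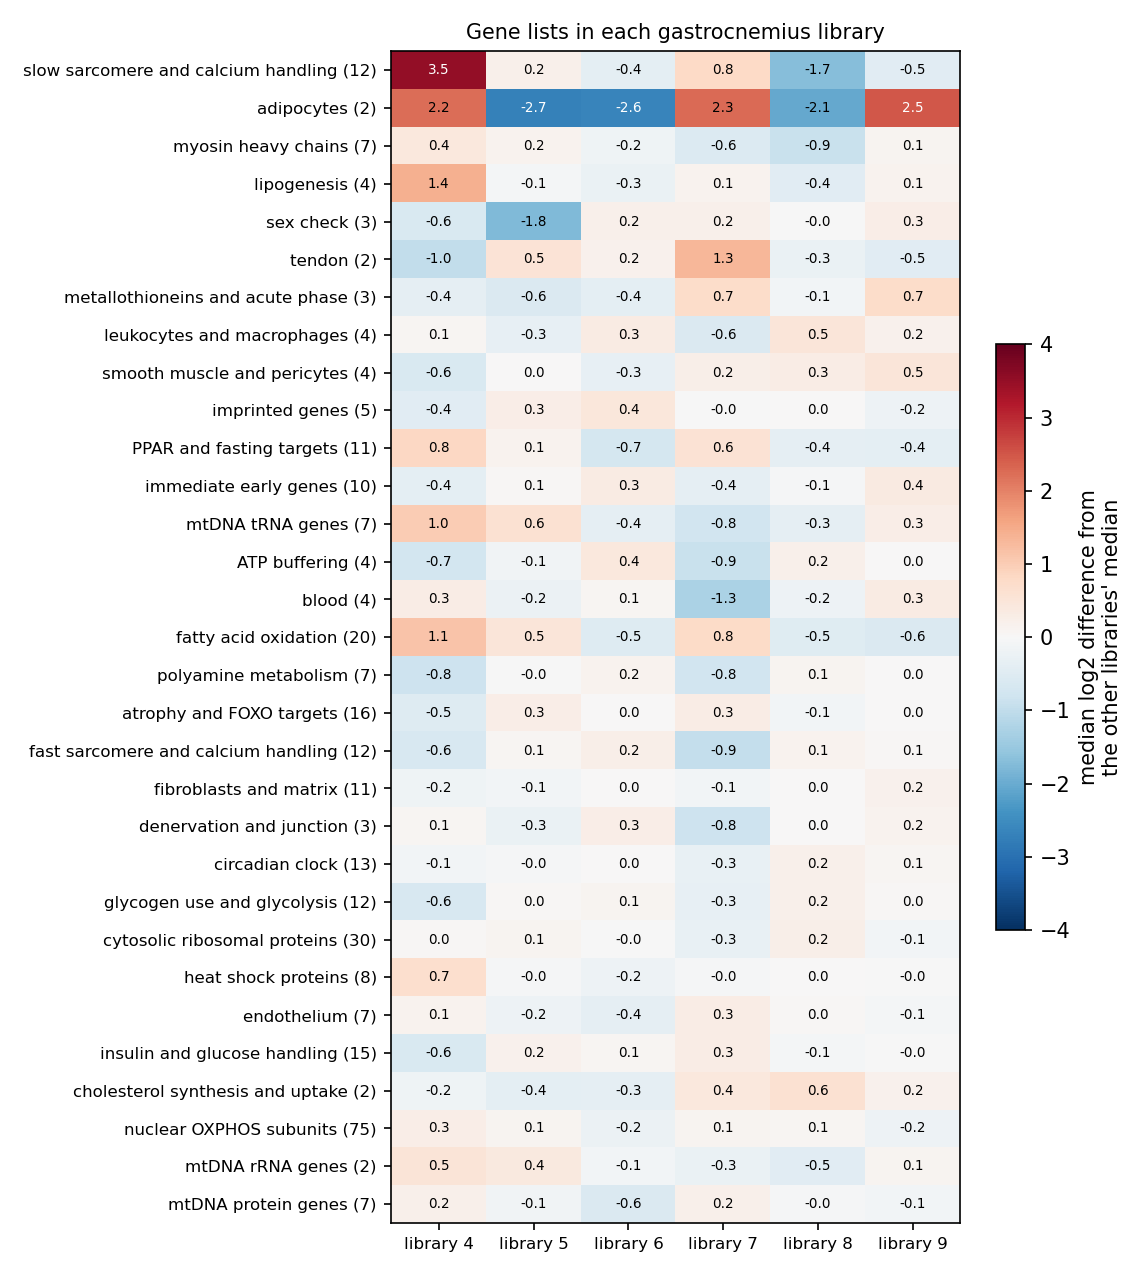
Median log2 difference of the members of each list from the median of the other 5 GAS libraries, 1 column per library, for lists of at least 2 members except those of nerve, with the number of members at 10 CPM or more in brackets. Slow genes stand 3.53 above in library 4 and -1.72 in library 8, and adipocyte genes range from -2.71 in library 5 to 2.47 in library 9.

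Against liver and eWAT, the tissues nearest in design, GAS differed in most genes. Of 10851 genes tested with edgeR's quasi-likelihood test, 31.5% were higher and 34.9% lower in GAS than in liver, and 26.3% were higher and 41.1% lower than in eWAT (adjusted p under 0.05). With library totals in place of TMM, the calls against eWAT split differently: 13.97% of the calls were higher in GAS, beside 39.0%, and the median log2 difference of all genes moved from -0.35 to -1.33. Among the 66 of 91 nuclear subunits of the respiratory chain with a mean of at least 10 CPM in all 3 tissues, 52 were higher and 2 lower in GAS than in liver, where 32.2% of all such genes were higher and 32.2% lower, with a median log2 difference of 0.94 beside 0.01 for all of them. Against eWAT 61 were higher and 2 lower (over all such genes 35.3% were higher and 30.4% lower), and with library totals 45 and 5, where of all 4296 such genes 477 were higher and 2862 lower. Of 18 fatty acid oxidation genes at that level in all 3 tissues, 12 were lower and 2 higher than in liver, and 11 higher and 5 lower than in eWAT. With library totals, which shift all genes of GAS downwards against eWAT, these were 2 higher and 6 lower. Slc2a4 stood at 253 to 373 CPM in GAS, 21.4 to 54.0 in eWAT and 0 to 0.537 in liver (CPM scaled over the 3 tissues). It was higher in GAS than in eWAT by 3.37 ± 0.21 (SE, adjusted p = 4.49e-12) on the log2 scale.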

How the data were processed

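Raw counts per gene in the gastrocnemius, liver and eWAT tables were deposited by the authors. The authors prepared libraries with a QuantSeq 3′ FWD kit, used BBDuk for trimming, STAR for mapping and featureCounts for counting, on the build GRCm38, which the submitters' processing notes name too. The strand setting was not given in the sources used here. Of 54838 gene identifiers, 54723 had a symbol. The members and the 38 gene lists were chosen with earlier results of these data known, and 18 columns of other samples were not used. Counts were scaled with TMM in edgeR 4.0.16 (R 4.3.3). Spread was the SD of log2 CPM (prior count 2) over 6 libraries, for genes at a mean of at least 10 CPM, beside the SD that Poisson counting gives. A list's members were compared with the median of the other 5 libraries. Tissues were compared in 1 quasi-likelihood fit over 18 libraries, after filterByExpr (minimum count 10), with Benjamini-Hochberg adjustment, and shares by an exact permutation test. Named by rule were the markers, the 10 most abundant genes, the 20 largest SDs, the 10 smallest SDs from 100 CPM, myosin heavy chains, mtDNA protein genes, the extremes of each list and defining cell markers, of which some are not reported here. Other named genes, among them the most abundant nuclear genes and those with large SDs from 100 CPM, were chosen after their values were seen. Alternatives were DESeq2 1.42.0 size factors and tests, library totals, other minimums and prior counts, and leaving out each library. Scripts were tested on simulated data. Figures were drawn with matplotlib 3.10.9.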

Additional observations from a re-analysis of the deposited data

Results flagged for a closer look

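Of 159 values screened, 27 had their highest or lowest library farther from the nearest of the others, relative to the range of all 6, than Dixon's 95% limit for 6 values. Chance flags about 1 in 20 groups of independent values that were not picked for their spread. Many of the screened values overlap, and some genes were named for their SD in these same libraries. That rate therefore does not apply here, and the number of flags is no measure of chance. Library 4 was the library set apart in 13 values as the highest and in 8 as the lowest, library 7 in 5 as the lowest and library 6 in 1 as the lowest.

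The slow isoforms made up most of the values in which library 4 was the highest. The gap over the range was 0.922 for the Myh7 share of myosin heavy chain counts, 0.718 for the Myh2 share and 0.627 for the Myh13 share, and 0.628 for the Myh4 share, in which library 4 was the lowest. Among slow shares of isoform pairs it was 0.888 for Tnni1, 0.887 for Myl2, 0.862 for Tnnc1, 0.843 for Tnnt1, 0.745 for Atp2a2 and 0.699 for Casq2. On log2 CPM, library 4 was also apart as the highest in Tnni1 (0.688), H19 (0.713) and Hspb7 (0.626) and in the mean of the heat shock proteins (0.696).

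Library 4 was apart as the lowest in the mean of the insulin and glucose handling genes (0.797) and in log2 CPM of Zcrb1 (0.889), Pdgfrb (0.88), Sqstm1 (0.693), Phka1 (0.646) and Egr1 (0.629). Zcrb1 is one of the 10 most even genes, so that its gap is a small one in CPM, and Pdgfrb had a count of 0 in library 4. The first principal component gave 0.782 for library 4.

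Library 7 was apart as the lowest in the means of the denervation and junction genes (0.803) and the blood genes (0.722), in Hba-a2 (0.801) and Hba-a1 (0.692), and on the second principal component (0.801). Library 6 was apart as the lowest in mt-Nd1 (0.643). The cause of these departures was not tested, and depth, which was lowest in library 4 and next lowest in library 7, cannot be told apart from them.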

How the results depend on the processing

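Leaving the mtDNA ribosomal and transfer RNA genes out, the mtDNA share in GAS was 25.8% in place of 37.3%, and the share of the 10 most abundant genes was 29.9% in place of 48.2% without mtDNA genes. The number of genes with an SD of at least 1 was 693 from a mean of 1 CPM, 15 from 100 CPM (a limit chosen after seeing the data), and 39 to 163 with 1 library left out, the lowest without library 4. The median SD was 0.51 from 1 CPM, 0.31 from 100 CPM, and 0.31 to 0.38 with 1 library left out. The first principal component held 58.7% from 100 CPM and 49.9% to 66.1% with 1 library left out. Of 276 values with 1 library left out 214 stayed within the spread between libraries or within 1.5 times a count, and of 74 values under other settings 66 did. None reversed. Calls between tissues numbered 7076 to 7362 against liver and 7144 to 7511 against eWAT with 1 GAS library left out. No paired analysis was possible because the GAS columns share no number with those of liver and eWAT. The 6 libraries hold both glucose tolerance classes without a key, and in library 4 a count of 0 leaves up to 8.11 CPM undetected.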

Other observations

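Heat shock genes were high in the library with the most slow-fibre RNA. Of 13 genes 8 reached 10 CPM, and 7 of the 8 were highest in library 4, where their median log2 difference from the others was 0.67, beside -0.19 for all genes. Higher there than the median of the others were 7 of the 8, and 2051 of all 5390 genes. Cryab, the αB-crystallin that guards desmin filaments, had 555, 227, 214, 408, 273 and 179 CPM in libraries 4 to 9. Hspb1, another small heat shock protein, had 16.4, 7.63, 9.65, 6.93, 14.5 and 9.47 CPM. Hspa8, the constitutive chaperone, was the most even with 167, 136, 148, 113, 138 and 145 CPM. Apart from Hspb7, no member had an SD of at least 1, and in library 7 the sign of the list's median turned with the scaling.

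Of 11 polyamine genes 7 reached 10 CPM. In library 7 all 7 were lower than the median of the others (median log2 difference -0.76). In library 4 the count was 5 of 7 (-0.84), while Oaz1 and Oaz2, antizymes that restrain Odc1, were highest there. Of all 5390 genes, 2879 were lower in library 7 (median -0.05) and 3339 in library 4 (-0.19). The 5 of 7 in library 4 is thus near the share of all genes. Odc1, the first enzyme of polyamine synthesis, spread the most with 2.73, 11.4, 12.9, 6.93, 19.5 and 16.6 CPM, of which library 4 had 1 count. Smox, which oxidises spermine, had 60.1, 151, 163, 146, 252 and 153 CPM. Azin1, which shields Odc1 from breakdown, was the most even with 21.9 to 42.9 CPM. Dgat2, which makes triglyceride, had 68.3, 21.4, 7.504, 9.89, 5.43 and 8.28 CPM and was highest in library 4, whereas Mlxipl, the glucose-sensing factor ChREBP, held at 24.7 to 35.5 CPM.

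Musk, the receptor kinase of the neuromuscular junction, had 16.4, 20.6, 13.4, 4.95, 16.7 and 29.0 CPM, lowest in library 7, and Chrna1, a subunit of the acetylcholine receptor, 16.4, 12.2, 15.01, 11.9, 17.2 and 10.1 CPM. Among imprinted genes Peg3 had 27.3, 32.4, 60.6, 37.6, 14.03 and 75.1 CPM, while Cdkn1c, a brake on the cell cycle, was even at 17.8 to 31.3 CPM. Pdgfrb of pericytes had 0, 12.97, 13.9, 16.8, 15.4 and 11.8 CPM, with no count in library 4. Mt1 and Mt2, metallothioneins that bind zinc, had 98.4 to 238 and 21.4 to 98.0 CPM. Rpl3l, the muscle form of a ribosomal protein, was among the most even of the ribosomal genes with 331, 327, 264, 336, 374 and 318 CPM, and Rpl13 was the least even with 109, 90.0, 61.6, 15.8, 47.1 and 45.0 CPM. No gene of the cell cycle, skin or liver lists reached 10 CPM.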
